A study of Rattus norvegicus with 6 samples.

Results

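The Toll-like receptors and the proteins that recognise lipopolysaccharide (LPS) were examined through 10 genes, chosen by name: Tlr2, Tlr3, Tlr4, Tlr7, Tlr9, Cd14, Ly96, Cd180, Ly86 and Myd88. All 10 are among the 23139 genes listed in the deposited tables. The libraries were made from primary microglia of postnatal day 1 Wistar rat cortices, which had been shaken off mixed cultures and sorted with CD11b/c microbeads. All cells received 100 ng/mL LPS, either with the solvent DMSO (LPS, n = 3) or with 50 µM siponimod, a modulator of sphingosine-1-phosphate receptors (LPS/siponimod, n = 3). No cells without LPS were analysed here, so that each value below compares both conditions under LPS and none measures the response to LPS itself.

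LPS is a component of the outer membrane of Gram-negative bacteria. CD14 takes up LPS and hands it to MD-2, the protein encoded by Ly96, which sits on the extracellular part of TLR4. The bound receptor pairs up and recruits adaptors that carry a TIR domain, namely TIRAP with MyD88 at the cell surface and TRAM with TRIF from endosomes. The MyD88 arm leads through IRAK kinases and TRAF6 to NF-κB, and the TRIF arm leads through TBK1 to interferon-β. RP105, encoded by Cd180, resembles TLR4 outside the cell but has no TIR domain. Together with MD-1, encoded by Ly86, it is known as a brake on TLR4 in myeloid cells. TLR2 binds bacterial lipoproteins at the surface, whereas TLR3, TLR7 and TLR9 bind nucleic acids in endosomes, and all of these except TLR3 signal through MyD88.

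The total counts per library ranged from 38080379 to 46643859, and the lowest count of any of the 10 genes in any library was 142 (Tlr9 in LPS/siponimod replicate 1). All 10 genes passed the filter on low counts. Together they took 0.425, 0.394 and 0.415% of the counts in LPS replicates 1, 2 and 3 and 0.263, 0.2997 and 0.257% in LPS/siponimod replicates 1, 2 and 3. Levels are given as CPM, the counts of a gene scaled to the library total after TMM scaling, and a negative log2 fold change (FC) means a lower level with siponimod. SE is its standard error, and the adjusted p is that of the quasi-likelihood test. Since CPM are not corrected for gene length, levels are compared between libraries and not between genes, except that the gene with the highest CPM, averaged over the 6 libraries, is named for each list of marker genes. In bulk RNA, fewer cells of a type and less RNA per cell cannot be told apart.

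Microglial marker genes were abundant in all 6 libraries as a sum, but not each of them. Over the 6 libraries Cx3cr1 ranged from 0.0646 to 5.24 CPM, P2ry12 from 0.317 to 15.8 CPM and Tmem119 from 7.30 to 24.9 CPM. The 14 marker genes of microglia summed to 10725, 8892 and 6117 CPM with LPS and to 4909.5, 6069 and 3633 CPM with LPS/siponimod. Csf1r had the highest CPM averaged over the 6 libraries. In LPS/siponimod replicates 1 and 3 Cd68 was above it, as was Itgam in replicate 3 of both conditions. Of the 14, 3 were lower with LPS/siponimod by the test used below (Aif1, Itgam and Cx3cr1) and none was higher. The study itself lists Aif1 and Cx3cr1 as downregulated in these libraries. In the fit blocked on replicate number, 7 were lower and 1 higher, and without LPS replicate 3 (described next) 6 were lower. In these fits, in the same order, 11.7, 16.4 and 14.5% of all genes tested were lower and 13.6, 17.7 and 15.9% higher. Part of the markers thus passed as different between the conditions, as did many other genes. Their part in the values below was not tested. Among genes of B and T cells, Cd3e had no count in any library and Ms4a1 had 1 count in a single library. Endothelial markers (highest average CPM Cdh5) summed to 130, 110 and 74.1 CPM under LPS alone and 35.8, 63.7 and 21.7 CPM with siponimod. Of 3 tested, 1 (Flt1) was lower. Blocked on replicate number, Cdh5 was lower as well (log2 FC -1.48, edgeR adjusted p = 0.0142). Tek, the third, had the opposite sign without the block and did not pass (log2 FC 0.93, edgeR adjusted p = 0.223). Sums of the other marker lists were 21.0 to 57.7 CPM for astrocytes (highest average CPM Slc1a3), 3.98 to 11.9 CPM for fibroblasts (Dcn, at 0.0810, 0 and 0.108 CPM with LPS and 9.81, 1.10 and 4.34 CPM with LPS/siponimod, where it passed as higher) and 0.0215 to 2.83 CPM for neutrophils (S100a8, which was lower, with Mpo and Elane at 0).

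LPS replicate 3 stood apart from the other LPS libraries. Its log CPM correlated at 0.935 and 0.945 over genes with those of LPS replicates 1 and 2, which correlated at 0.983 with each other. Olig1, a transcription factor gene of the oligodendrocyte lineage, had 515 counts in it against 1 and 5 in LPS replicates 1 and 2, and the 7 markers of that lineage, with Mbp having the highest average CPM, summed to 36.04 CPM against 5.34 and 5.37 CPM. They summed to 11.4, 10.3 and 22.6 CPM in LPS/siponimod replicates 1, 2 and 3, all above LPS replicates 1 and 2. Most of these 3 sums was Mbp, at 10.1, 8.89 and 15.9 CPM. In LPS replicates 1, 2 and 3 Mbp was at 4.02, 4.18 and 2.26 CPM, so that it was lowest in replicate 3. Olig1 had 2, 3 and 17 counts and Pdgfra 1, 4 and 81 in LPS/siponimod replicates 1, 2 and 3. The sum of the 5 neuron markers, with Tubb3 having the highest average CPM, was 11.2 CPM in LPS replicate 3 and 1.65 and 1.04 CPM in the other LPS libraries, and it was 6.39, 9.19 and 16.8 CPM in LPS/siponimod replicates 1, 2 and 3. Mbp and the neuronal gene Snap25 were higher with LPS/siponimod. The neuron markers Map2, Rbfox3 and Syt1 had at most 1 count each in LPS/siponimod replicates 1 and 2 and were not tested. Map2 had 162 counts in LPS replicate 3 and 115 in LPS/siponimod replicate 3. Tubb3 was also higher with the block on replicate number (log2 FC 1.59, edgeR adjusted p = 0.0316) and with LPS replicate 3 left out. The fibroblast gene Col1a1 was lower with LPS replicate 3 left out. The astrocyte gene Gfap had 88 counts in LPS replicate 3, against 1 and 2 in LPS replicates 1 and 2. Slc1a2, another, had 82 against 5 and 3, whereas Slc1a3 was lower, at 15.5 CPM against 40.5 and 20.1 CPM. With LPS/siponimod, Gfap had at most 1 count and Slc1a2 at most 22. Il1a, the interleukin-1α gene, reached 3929 CPM in LPS replicate 3 against 170 and 86.9 CPM in replicates 1 and 2. Counts of the 10 genes and of the pathway lists that passed the test are therefore also given without this library where they changed. The part of other cell types or of this library in the results was not tested.

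With siponimod, 2 of the 10 genes were lower and none was higher where a call needed both an adjusted p no larger than 0.05 and a change of 1.5-fold or more (quasi-likelihood test of edgeR, with p-values adjusted by Benjamini-Hochberg over the 11977 genes tested). The 2 genes were Tlr7 and Tlr2. Over all genes tested 25.3% passed these thresholds, 11.7% as lower and 13.6% as higher, so that the 2 of 10 do not stand out from the background. The fitted log2 FC was negative for 8 of the 10 genes and the median was -1.05, beside -0.02 for all genes tested. The levels of the 2 conditions did not overlap for 5 of the 10 genes (Tlr2, Tlr7, Cd180 and Ly86 lower, Tlr4 higher), beside 49.3% of all genes tested (24.0% lower and 25.3% higher). All 3 same-numbered pairs moved one way for 8 of the 10 genes, Cd14 and Tlr3 being the exceptions, beside 70.8% of all genes tested. Without LPS replicate 3 the test found 3 genes lower, namely Tlr3, Tlr7 and Myd88, with 30.3% of all genes past the thresholds (14.5% as lower). Between the remaining 5 libraries the levels of 8 genes did not overlap as lower and that of 1 as higher, beside 33.8 and 34.4% of all genes.

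**Figure D1:**
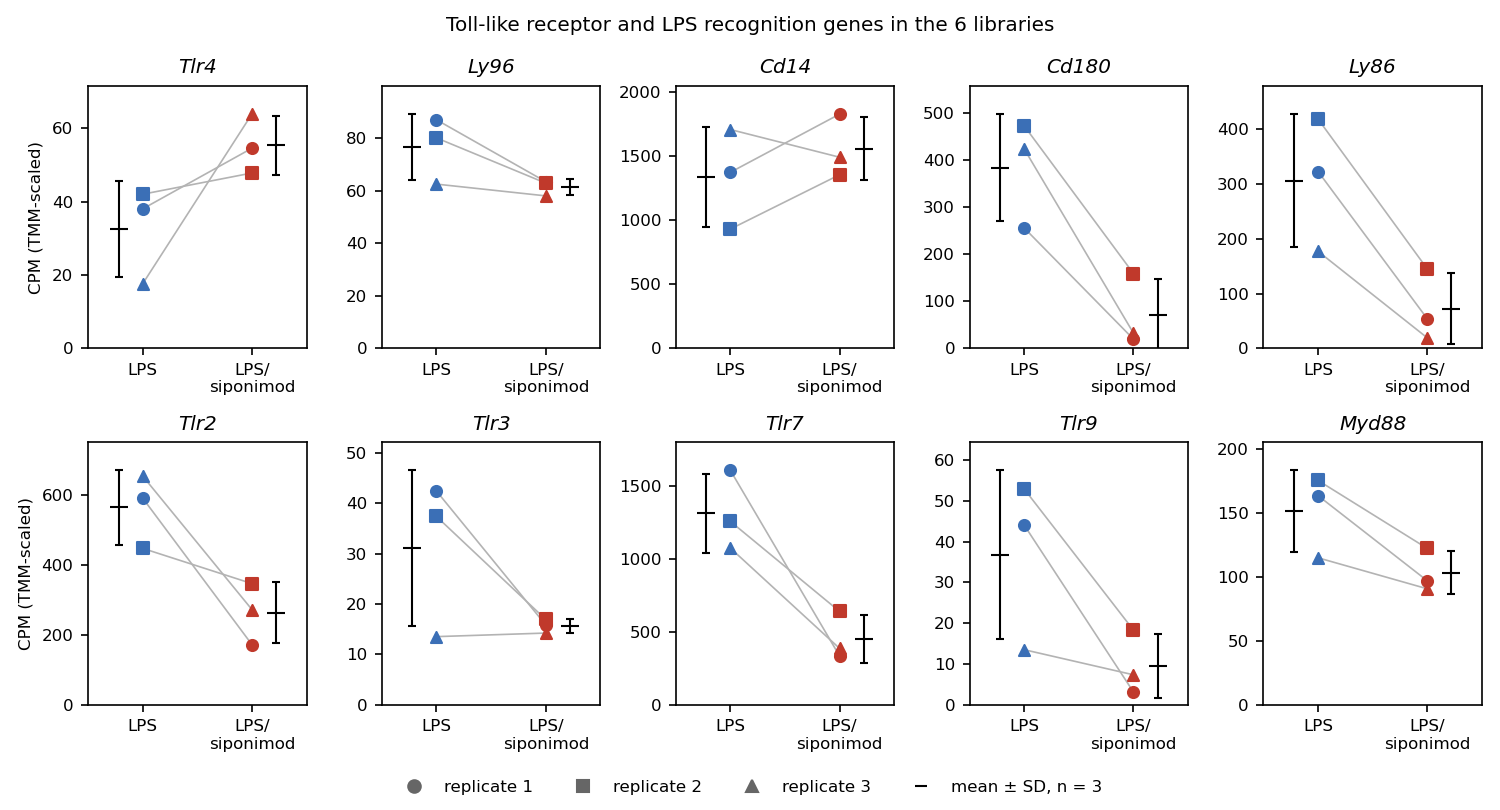
Levels of the 10 genes in each library, in CPM after TMM scaling on linear axes that start at 0. Points are libraries, symbols mark the replicate number, grey lines join libraries with the same number, and bars give mean ± SD (n = 3, the lower bar of Cd180 is clipped at 0). LPS/siponimod libraries lie below all LPS libraries for Tlr2, Tlr7, Cd180 and Ly86 and above them for Tlr4.

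Replicate numbers were shared between the conditions, and libraries with the same number deviated together. Blocked on this number, 4 of the 10 genes were lower and none was higher (34.0% of all genes passed, 16.4% as lower and 17.7% as higher), Cd180 and Ly86 joining Tlr7 and Tlr2.

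None of the 3 genes of the LPS receptor complex, Tlr4, Ly96 and Cd14, passed the thresholds. Tlr4 levels were 37.998, 42.0 and 17.6 CPM in LPS replicates 1, 2 and 3 and 54.5, 47.8 and 63.9 CPM in LPS/siponimod replicates 1, 2 and 3. Every LPS/siponimod library was above every LPS library, but the lowest LPS value, that of replicate 3, lay far below the other 2. The difference did not pass the test (log2 FC 0.77, SE 0.33, edgeR adjusted p = 0.125). Without LPS replicate 3 the log2 FC was 0.47 (adjusted p = 0.0705, edgeR quasi-likelihood test).

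Ly96, the gene of the LPS-binding subunit MD-2, was measured at 87.0, 80.1 and 62.5 CPM under LPS alone and 63.5, 62.9 and 58.0 CPM once siponimod was present. The highest LPS/siponimod library was just above the lowest LPS library, so that the conditions overlapped. The log2 FC was -0.32 with a 95% interval from -0.61 to -0.02 (edgeR adjusted p = 0.154). Without LPS replicate 3 it was -0.44 (edgeR adjusted p = 0.0306), short of a 1.5-fold change.

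Cd14, the gene of the co-receptor that passes LPS on to MD-2, was at 1371, 929 and 1705 CPM under LPS alone and 1825, 1353 and 1489 CPM once siponimod was present. Values of the 2 conditions interleaved, and Cd14 was higher in the LPS/siponimod library in pairs 1 and 2 and lower in pair 3. The log2 FC of 0.22 had a 95% interval from -0.31 to 0.75, and the test was not passed (edgeR adjusted p = 0.56). The interval leaves out a decrease of 1.5-fold but not an increase of that size.

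The pair of genes for the TLR4-like brake, Cd180 and Ly86, had the lowest fitted log2 FCs of the 10. Cd180 was at 255, 472 and 423 CPM under LPS alone and 19.3, 159 and 32.0 CPM once siponimod was present. All LPS/siponimod libraries were below all LPS libraries, and their own values differed up to 8.20-fold, replicate 2 being the highest. The log2 FC was -2.45 (SE 0.82, edgeR adjusted p = 0.0678), and with the replicate number as a block it was -3.03 (SE 0.53, edgeR adjusted p = 0.0137), so that Cd180 passed the thresholds with the block and not in the main fit. It also passed with limma-voom and without LPS/siponimod replicate 2 (log2 FC -3.91, edgeR adjusted p = 0.00813), and over fits that left out 1 library its log2 FC ranged from -3.91 to -2.01.

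Ly86, whose product MD-1 holds RP105 at the cell surface, was measured at 323, 419 and 177 CPM under LPS alone and 53.7, 145 and 18.9 CPM once siponimod was present. Again the conditions did not overlap and replicate 2 was the highest of the LPS/siponimod libraries. The gap between the lowest LPS and the highest LPS/siponimod library was narrow, 177 against 145 CPM, while within pairs the log2 difference was -2.59, -1.53 and -3.22. Without the block the log2 FC was -2.08 (SE 0.74, edgeR adjusted p = 0.0804) and with it -2.45 (SE 0.36, edgeR adjusted p = 0.00974). With 1 library left out the log2 FC of Ly86 ranged from -3.08 to -1.62, and it passed only without LPS/siponimod replicate 2 (edgeR adjusted p = 0.0285). Both genes are among those that the study lists as downregulated in these libraries, so that their direction is not independent evidence.

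**Figure D2:**
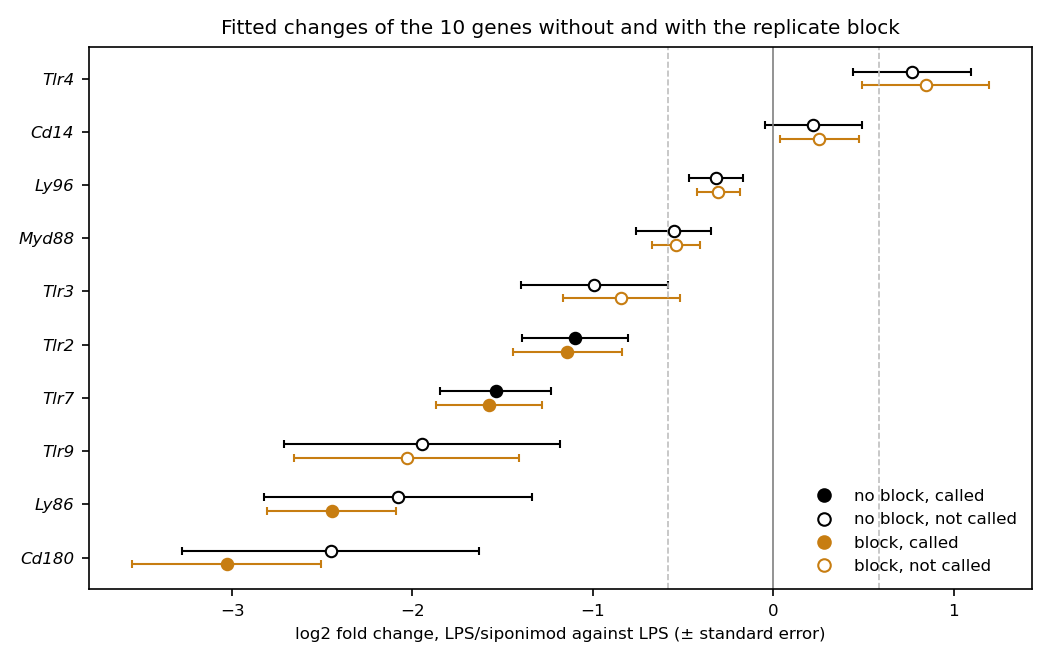
Fitted log2 FC of LPS/siponimod against LPS for the 10 genes, with bars of 1 SE, without (black) and with (orange) the replicate number as a block. Filled points passed both thresholds (dashed lines mark 1.5-fold), as did Tlr2 and Tlr7 in both fits and Cd180 and Ly86 with the block. The order runs from Tlr4 at 0.77 to Cd180 at -2.45.

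Ratios of raw counts within a library do not depend on how libraries are scaled. The ratio of Cd180 to Tlr4 reads was 6.72, 11.2 and 24.1 in LPS replicates 1, 2 and 3 and 0.354, 3.32 and 0.502 in LPS/siponimod replicates 1, 2 and 3. The 2 conditions were separate, with a mean log2 difference of -3.86, which ranged from -4.85 (without LPS/siponimod replicate 2) to -3.24 with 1 library left out. The ratio of Ly96 to Tlr4 reads went from 2.29, 1.91 and 3.56 to 1.16, 1.32 and 0.909 (log2 difference -1.16), again without overlap. Cd14 to Tlr4 reads overlapped, at 36.1, 22.1 and 97.1 under LPS alone and 33.5, 28.3 and 23.3 once siponimod was present (log2 difference -0.60, which was -0.01 without LPS replicate 3 and -1.08 without LPS replicate 2).

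Reads of Ly86 to Cd180 had ratios of 1.26, 0.887 and 0.419 under LPS alone and 2.78, 0.913 and 0.590 once siponimod was present. These overlapped, and the log2 difference of 0.56 turned to -0.08 without LPS/siponimod replicate 1. Within same-numbered pairs the ratio was higher with siponimod in all 3, by 1.13, 0.04 and 0.50 on the log2 scale (exact sign-flip test p = 0.25, the smallest that 3 pairs can give). The ratio of Tlr2 to Tlr4 reads was 15.6, 10.7 and 37.3 under LPS alone and 3.15, 7.25 and 4.27 once siponimod was present, without overlap and with a log2 difference of -2.00. In two-sided exact permutation tests over the 6 libraries, p was 0.1 for Cd180, Ly96 and Tlr2 to Tlr4, which is the smallest value that 3 against 3 libraries can give, and 0.5 for Cd14 to Tlr4 and for Ly86 to Cd180. Adjusted over the 5 ratios, these exact permutation p-values were 0.167 and 0.5. Cd180 and Tlr2 were lower and Tlr4 was higher without overlap in the levels above. The separation of Cd180 to Tlr4 and of Tlr2 to Tlr4 therefore follows from those levels and adds no evidence. All ratios that separated share Tlr4, so that they are not independent of each other.

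**Figure D3:**
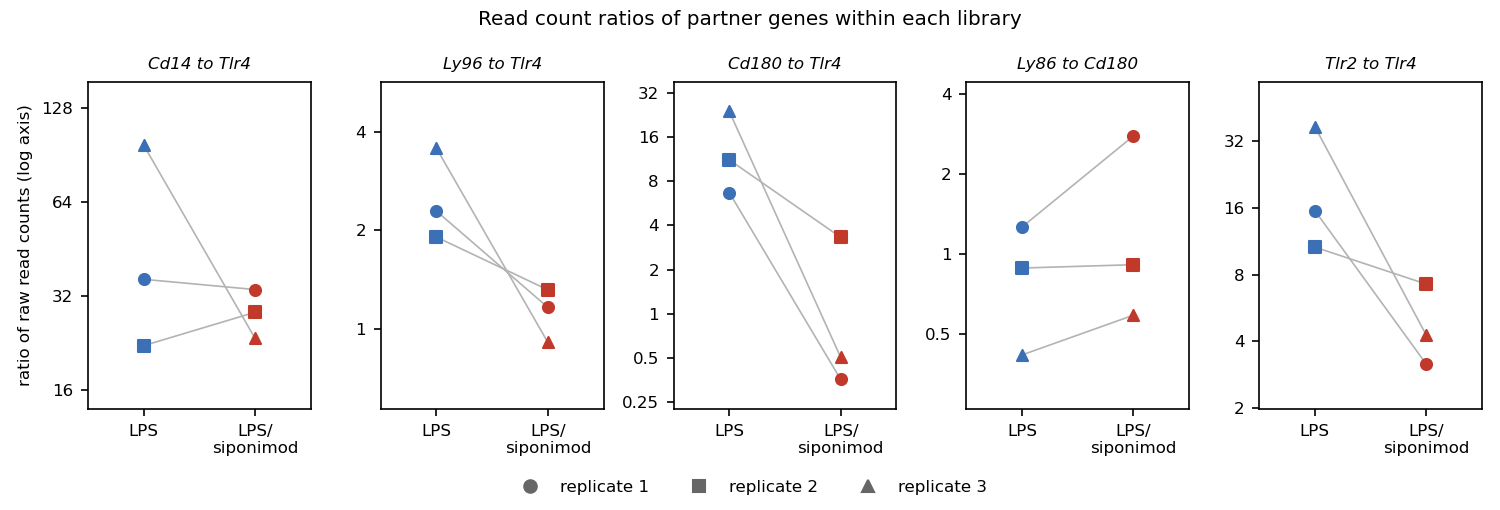
Ratios of raw read counts of 2 partner genes within each library, on log axes. Points are libraries, symbols mark the replicate number and grey lines join libraries with the same number. Cd180 to Tlr4, Ly96 to Tlr4 and Tlr2 to Tlr4 were lower in all LPS/siponimod libraries, whereas Cd14 to Tlr4 and Ly86 to Cd180 overlapped.

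Tlr2, the surface receptor for bacterial lipoproteins, fell from 592, 448 and 655 CPM in LPS replicates 1, 2 and 3 to 172, 347 and 272 CPM in LPS/siponimod replicates 1, 2 and 3. No LPS/siponimod library reached the lowest LPS library, and the pair with the smallest difference was the second. The log2 FC was -1.10 (SE 0.29, edgeR adjusted p = 0.0374). Without LPS replicate 3 it was -0.98 and no longer passed (edgeR adjusted p = 0.0656). Leaving out LPS replicate 1 or 2 or LPS/siponimod replicate 1 or 3 also ended the call.

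Among the endosomal receptors, Tlr7, which senses single-stranded RNA, had the smallest adjusted p. It had 1610.1, 1259 and 1076 CPM under LPS alone and 333, 640 and 385 CPM once siponimod was present. The highest LPS/siponimod library, replicate 2, stayed well below the lowest LPS library. The log2 FC was -1.54 (SE 0.31, edgeR adjusted p = 0.0179), and -1.66 without LPS replicate 3 (edgeR adjusted p = 0.0202). Without LPS replicate 1 or 2 or LPS/siponimod replicate 1 or 3, the adjusted p lay between 0.0526 and 0.0785 by the same edgeR test.

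Tlr9, the receptor for unmethylated CpG DNA, was at 44.0, 52.9 and 13.5 CPM under LPS alone and 3.06, 18.3 and 7.29 CPM once siponimod was present. It was lower in all 3 pairs, but LPS replicate 3 lay below LPS/siponimod replicate 2, and the test was not passed (log2 FC -1.95, SE 0.76, edgeR adjusted p = 0.101). With 1 library left out the log2 FC of Tlr9 ranged from -1.53 (without LPS/siponimod replicate 1) to -2.85 (without LPS/siponimod replicate 2, edgeR adjusted p = 0.0503).

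Tlr3, which senses double-stranded RNA and uses TRIF alone, was at 42.4, 37.4 and 13.5 CPM under LPS alone and 15.8, 16.9 and 14.2 CPM once siponimod was present. The LPS/siponimod libraries were almost level, and the third LPS library was as low as they were. Over all libraries the log2 FC was -0.99 (SE 0.41, edgeR adjusted p = 0.114), and without LPS replicate 3 Tlr3 passed the thresholds (log2 FC -1.35, edgeR adjusted p = 0.00999).

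Myd88, the adaptor shared by all Toll-like receptors except TLR3, was measured at 163, 175 and 115 CPM under LPS alone and 96.7, 122 and 90.5 CPM once siponimod was present. It was lower in each of the 3 pairs, with overlapping conditions. The log2 FC of -0.55 (SE 0.21, edgeR adjusted p = 0.0917) was smaller than a fold change of 1.5. With the block the adjusted p was 0.0333 by the same test and the log2 FC was -0.54, still short of that fold, whereas without LPS replicate 3 Myd88 passed both thresholds (log2 FC -0.71, edgeR adjusted p = 0.0269).

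LPS/siponimod replicate 2 was the highest of its group for 7 of the 8 genes with a negative log2 FC, as it was for 85.3% of all genes that passed as lower and for 61.6% of all genes tested with a negative log2 FC. LPS replicate 3 was the lowest of its group for 6 of the 8, against 51.0% of all genes that passed as lower.

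Promoter sequences of 8 of the 10 genes were found in the RefSeq table of the GRCr8 assembly, and the 250 bases before each start were searched on both strands for 7 motifs. The motifs were the NF-κB consensus, the interferon response element core (GAAA, any 2 bases, GAAA), the composite of PU.1 and IRF factors (GGAA, any 2 bases, GAAA, which can overlap the core before it), the PU.1 site GAGGAAGT, the AP-1 site TGANTCA, the cAMP element TGACGTCA and the ATF4 element TGATGCAA. Shown are the 2 genes that passed the test, Tlr2 and Tlr7, and Myd88 as the shared adaptor, with motif matches in capitals. Tlr2 lies at chr2:171504558-171504807 on the minus strand, Tlr7 at chrX:30644176-30644425 on the plus strand and Myd88 at chr8:127956231-127956480 on the minus strand.
Tlr2: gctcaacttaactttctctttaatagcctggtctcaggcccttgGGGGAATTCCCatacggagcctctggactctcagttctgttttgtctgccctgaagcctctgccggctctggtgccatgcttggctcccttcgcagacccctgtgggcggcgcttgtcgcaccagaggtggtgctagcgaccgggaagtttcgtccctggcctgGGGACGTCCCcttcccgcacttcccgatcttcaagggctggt
Tlr7: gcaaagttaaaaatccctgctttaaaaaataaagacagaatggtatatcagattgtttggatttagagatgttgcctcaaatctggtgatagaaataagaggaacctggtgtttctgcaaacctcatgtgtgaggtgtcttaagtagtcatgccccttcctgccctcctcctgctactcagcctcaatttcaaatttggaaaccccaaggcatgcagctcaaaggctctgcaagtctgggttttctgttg
Myd88: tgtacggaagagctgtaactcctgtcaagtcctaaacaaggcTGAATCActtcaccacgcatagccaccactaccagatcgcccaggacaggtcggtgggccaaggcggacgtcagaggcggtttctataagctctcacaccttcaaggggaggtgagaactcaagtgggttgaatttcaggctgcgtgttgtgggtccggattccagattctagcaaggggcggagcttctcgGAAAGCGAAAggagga
The capitals in Tlr2 are matches to the NF-κB consensus, which 6.33% of 33465 rat promoter windows of this length hold. In Myd88 they are an AP-1 match (6.34% of windows) and, close to the start, an interferon response element core (3.41%). The Tlr7 window holds none of the 7 motifs. Of the other members, Tlr9 holds an AP-1 match. These are matches of letters and not measured binding sites.

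Around the 10 genes, 69 further genes of the pathway were listed by role, and 59 of them had enough counts to be tested. Of those not tested, Tlr13, Cd36 and Ticam1 are absent from the genes listed in the deposited tables. By the quasi-likelihood test 17 of the 59 (28.8%) were lower and 2 (3.39%) higher with LPS/siponimod, beside 11.7% lower and 13.6% higher among all genes, and the median log2 FC was -0.42. With the block 19 were lower and 4 higher, beside 16.4 and 17.7% of all genes. Without LPS replicate 3, 17 were lower and 8 higher, beside 14.5 and 15.9%. Without LPS replicate 1 or 2 or LPS/siponimod replicate 1 or 3, at most 2 were lower and 2 higher, while the share of all genes that passed fell to between 5.16 and 13.9%.

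Of the 7 other Toll-like receptors listed in the tables, 5 were tested and 3 were lower. Tlr6 and Tlr1, which pair with TLR2, had log2 FCs of -1.31 (SE 0.20, edgeR adjusted p = 0.00989) and -1.52 (SE 0.39, edgeR adjusted p = 0.0331). Tlr6 was at 101, 96.7 and 133 CPM under LPS alone and 40.6, 54.8 and 38.2 CPM once siponimod was present, and Tlr1 at 579, 569 and 489 against 160, 305 and 107 CPM. For both genes the conditions were far apart. Tlr6 is also among the genes that the study lists as downregulated in these libraries. Tlr1 and Tlr6 neighbour each other in the RefSeq table and are similar in sequence, so that reads could have been divided between them.

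Tlr8, another sensor of RNA and the neighbour of Tlr7, was at 928, 459 and 374 CPM under LPS alone and 189, 281 and 174 CPM once siponimod was present (log2 FC -1.45, SE 0.39, edgeR adjusted p = 0.0389). The Tlr8 call was lost when any library except LPS replicate 3 was left out (edgeR adjusted p from 0.0512 to 0.15). It was also lost with no filter beyond 1 count (edgeR adjusted p = 0.0502). Tlr5 and Tlr10 did not pass, and Tlr11 and Tlr12 had no counts. Of the genes for LPS handling outside the receptor, Aoah, which encodes an enzyme that removes fatty acids from LPS, fell with a log2 FC of -1.08 (SE 0.23, edgeR adjusted p = 0.0205). Lbp and Bpi, for secreted LPS-binding proteins, had at most 4 counts in a library.

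Of 5 genes for proteins that fold and move the receptors, 1 was lower and none was higher. Cnpy3, which encodes a co-chaperone of several Toll-like receptors, fell from 142, 134 and 110 CPM to 79.9, 85.8 and 79.4 CPM (log2 FC -0.66, SE 0.13, edgeR adjusted p = 0.019). The other 4 genes of this group did not pass. The log2 FC of Hsp90b1, for the chaperone gp96, was 0.03 with a 95% interval from -0.40 to 0.46, and that of Unc93b1, which takes endosomal receptors to their compartment, was -0.10 with an interval from -0.70 to 0.50. Neither had a stable sign when single libraries were left out.

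Of 7 tested genes of the TIR adaptors and the TRIF arm, 3 were lower and none higher. Tirap, the bridging adaptor of MyD88, had a log2 FC of -0.88 (SE 0.23, edgeR adjusted p = 0.0359). The kinase genes Ikbke (log2 FC -1.44) and Tbk1 (log2 FC -0.64), which act on interferon regulatory factors, also passed (edgeR adjusted p = 0.0273 and 0.0295). Ticam2, the gene of TRAM, joined them with the block (log2 FC -0.78, edgeR adjusted p = 0.0406, against 0.139 without it). Tirap lost its call without LPS replicate 3 (log2 FC -0.83, edgeR adjusted p = 0.0592), which left 2 of the 7 lower.

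Of 12 tested kinase and ligase genes of the MyD88 arm, 1 was higher and none lower, with a median log2 FC of 0.04. The higher gene was Tab3, a subunit of the TAK1 kinase complex, at 5.72, 4.85 and 6.24 CPM under LPS alone and 11.8, 9.93 and 10.8 CPM once siponimod was present (log2 FC 0.95, SE 0.17, edgeR adjusted p = 0.0142). Its call was lost without LPS replicate 2, LPS/siponimod replicate 1 or LPS/siponimod replicate 3, with adjusted p from 0.0541 to 0.0665 by the same test. Irak1 had an adjusted p of 0.0413 by the same test but a log2 FC of 0.45, short of a 1.5-fold change. Traf6 was at 12.3, 11.8 and 19.9 CPM under LPS alone and 19.0, 18.2 and 27.3 CPM once siponimod was present (log2 FC 0.55, edgeR adjusted p = 0.167). It was higher in all 3 pairs. With the block its adjusted p was 0.0257 by the same test with a log2 FC of 0.57, just short of 1.5-fold, and without LPS replicate 3 it passed both thresholds (log2 FC 0.84, edgeR adjusted p = 0.0388). Without that library 3 of the 12 were higher, Irak2 being the other addition.

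Of 9 tested inhibitors of receptor signalling, 3 were lower and none higher. They were Nrros, which encodes a protein that restrains Toll-like receptors (log2 FC -1.15, SE 0.23, edgeR adjusted p = 0.0187), Inpp5d, for the inositol phosphatase SHIP1 (log2 FC -1.03, SE 0.22, edgeR adjusted p = 0.0225), and Trafd1 (log2 FC -1.01, SE 0.29, edgeR adjusted p = 0.0447). Tnfaip3, the gene of the deubiquitinase A20, had the opposite sign (log2 FC 0.65, edgeR adjusted p = 0.0742) and was higher with the block (adjusted p = 0.0236, edgeR quasi-likelihood test). Socs1, for a suppressor of cytokine signalling, was lower with the block (log2 FC -0.85, edgeR adjusted p = 0.0255, against 0.108 without it), which made 4 lower and 1 higher. Without LPS replicate 3, 4 of the 9 were lower, with Cyld added.

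Target genes were listed by the arm that they are known to depend on. None of the 10 tested targets of the MyD88 arm was lower and 1 was higher, with a median log2 FC of 0.07. The higher gene was Ptgs2, for cyclooxygenase-2, with 38.6, 29.0 and 187 CPM under LPS alone and 3100, 2402 and 6171 CPM once siponimod was present (log2 FC 5.52, SE 0.94, edgeR adjusted p = 0.0123). Its log2 FC was 6.85 without LPS replicate 3, and the call was lost without LPS replicate 2 (edgeR adjusted p = 0.0508). Tnf was at 75.1, 156 and 568 CPM under LPS alone and 87.9, 188 and 138 CPM once siponimod was present, and its log2 FC of -0.95 (edgeR adjusted p = 0.358) turned to 0.26 without LPS replicate 3. Il1a turned as well, from -0.55 (edgeR adjusted p = 0.78) to 2.90 (edgeR adjusted p = 0.0193). Il1b was at 1392, 1394 and 5591 CPM under LPS alone and 1042, 1215.5 and 1775 CPM once siponimod was present. It was lower in all 3 pairs but did not pass (log2 FC -1.05, edgeR adjusted p = 0.229).

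The count of MyD88-dependent targets rested on LPS replicate 3. Without it 5 of the 10 were higher and none lower, and the median log2 FC was 2.57. The added genes were Il1a, Il6 and those of the neutrophil chemokines Cxcl1 (log2 FC 3.94, edgeR adjusted p = 0.0237) and Cxcl2 (log2 FC 4.27, edgeR adjusted p = 0.0159). Cxcl2 was at 117, 34.7 and 1092 CPM in LPS replicates 1, 2 and 3 and at 1779.5, 866 and 1744.5 CPM in LPS/siponimod replicates 1, 2 and 3, so that of the LPS libraries only the third lay above the lowest LPS/siponimod library. Over all libraries neither chemokine gene passed (edgeR adjusted p = 0.507 for Cxcl1 and 0.278 for Cxcl2), although both were higher in all 3 pairs. With the block 2 of the 10 were higher, Il12b joining Ptgs2 (log2 FC 1.42, edgeR adjusted p = 0.00692, against 0.244 without the block). Without the block, its log2 FC of 1.54 went to 0.33 when LPS/siponimod replicate 3 was left out and to 2.57 when LPS replicate 3 was left out, and neither passed (edgeR adjusted p = 0.794 and 0.0899).

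Of 9 tested targets of the TRIF arm and of interferon, 6 were lower and none higher, with a median log2 FC of -1.48. The 3 with the smallest adjusted p were Isg15, a ubiquitin-like modifier (log2 FC -1.59, SE 0.18, edgeR adjusted p = 0.00655), the chemokine gene Cxcl10 (log2 FC -3.12, SE 0.67, edgeR adjusted p = 0.0209) and Mx1, an antiviral GTPase (log2 FC -2.07, SE 0.47, edgeR adjusted p = 0.0248). With 1 library left out, the log2 FC of Cxcl10 ranged from -4.21 to -2.76, and Isg15 passed in every such fit. Without LPS replicate 1 or 2 or LPS/siponimod replicate 1 or 3, Cxcl10 and Mx1 did not pass (edgeR adjusted p 0.0585 to 0.11). Cxcl10 is also on the study's own lists of genes downregulated in these libraries. Ifnb1, the interferon-β gene, was on this list but was left out by the filter on low counts. It had 16, 7 and 40 counts in LPS replicates 1, 2 and 3 and 0, 1 and 1 in LPS/siponimod replicates 1, 2 and 3. The study names it among the cytokine genes that were lower with siponimod. The difference between the target groups of the 2 arms was not tested.

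**Figure D4:**
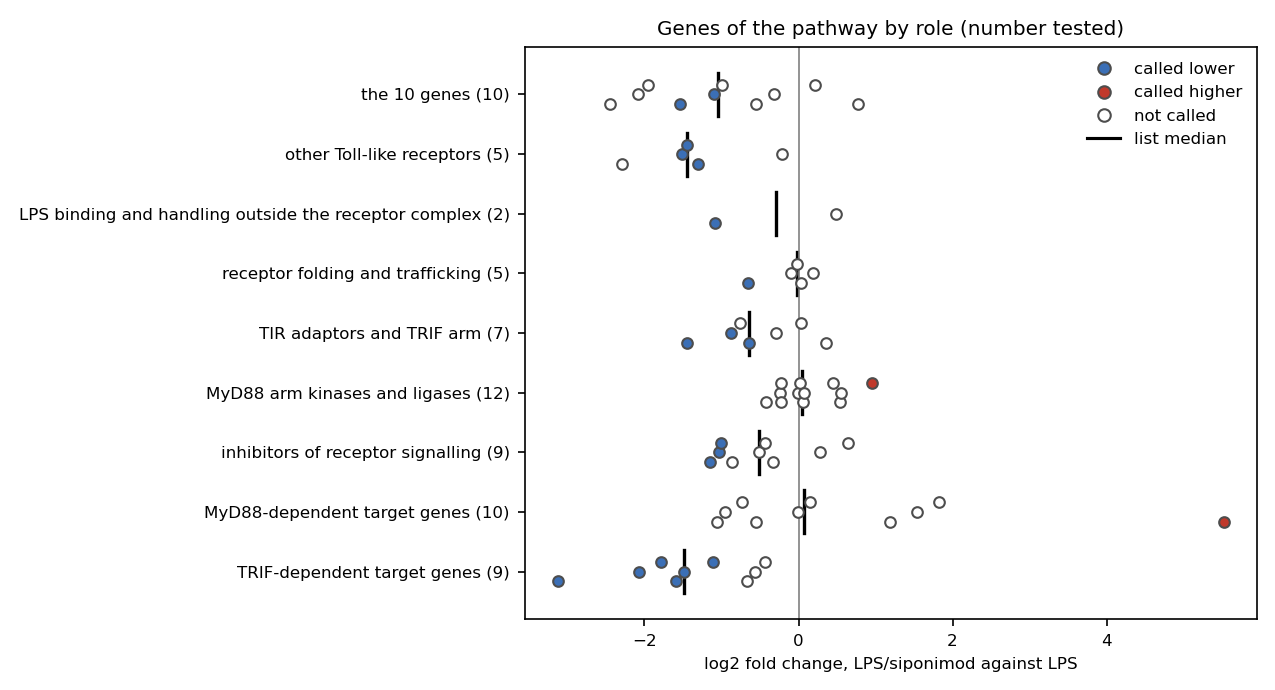
Log2 FC of LPS/siponimod against LPS for each tested gene of the pathway, grouped by role, with the number tested in brackets. Filled points passed the test, blue as lower and red as higher, and black lines are list medians, which range from -1.48 for TRIF-dependent targets to 0.07 for MyD88-dependent targets (2.57 without LPS replicate 3). Points are spread vertically for legibility only.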

How the data were processed

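Bulk mRNA of 3 LPS and 3 LPS/siponimod libraries was sequenced. Single-end reads were quality trimmed and mapped to the rat genome (mRatBN7.2) in the CLC Genomics Workbench by the authors, who deposited raw total counts per gene, 1 table per library, without normalization. Demultiplexing used bcl2fastq (version 2.20.0.422, per the labels). Handling of strand and of reads matching several genes is not given in the sources used here, so that values of similar or overlapping genes are uncertain. In 1 table, 1 row without name or value was left out.

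Counts went through edgeR 4.0.16 under R 4.3.3, that is filterByExpr (minimum count 10, minimum total 15), which left 11977 of 23139 genes, TMM factors from 0.939 to 1.056, a quasi-likelihood fit (glmQLFit, glmQLFTest) on condition alone, and Benjamini-Hochberg adjustment over all genes tested. The standard error is the log2 FC divided by the square root of the F statistic, and 95% intervals take it as normal, which with 3 libraries per condition is too narrow. The procedure was tested on simulated counts. Alternatives used limma (version 3.58.1) and DESeq2 (version 1.42.0), among others. Ratios had 0.5 added to each count.

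Same-numbered libraries correlated at 0.42, 0.545 and 0.611 in their deviations from the group mean, while the other combinations gave -0.534 to 0.086. From these values, and not from a statement of the study, equal numbers were taken as pairs, and a replicate block was fitted as an alternative. Replicates are called biological by the study.

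The 10 genes, the role lists, the motifs and the tests were chosen with earlier results of these data known. Named are the 10 genes and, of each role list, the genes that passed in a direction (the 3 with the smallest adjusted p where more than 5 did). Tnf, Il1a, Il1b, Ifnb1, Tnfaip3, Ticam2, Irak1, Traf6, Unc93b1, Hsp90b1, Il12b, Socs1, Cxcl1, Cxcl2, Il6, Irak2, Cyld, Tlr5, Tlr10, Tlr11, Tlr12, Lbp and Bpi were named after their values were seen. Tlr13, Cd36 and Ticam1 were named because they have no values. RefSeq names and promoters belong to the GRCr8 assembly, to which the reads were not mapped, and gene lengths were not used.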

Additional observations from a re-analysis of the deposited data

How the results depend on the processing

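None of the 10 genes changed the sign of its log2 FC under any of the 14 alternatives, whereas calls moved with the test and the libraries. Beside 2 lower genes in the main fit, 5 were lower with DESeq2 and 5 with edgeR's likelihood ratio test (Tlr9, Cd180 and Ly86 added), 4 with the replicate block and 0 with glmTreat against a fold change of 1.5. The share of all genes that passed moved too, from 25.3% to 32.5% with DESeq2, 29.8% with the likelihood ratio test, 34.0% with the block and 8.27% with glmTreat. With single libraries left out it was 0 to 4 and none higher, while the genes that passed overall went from 651 (without LPS replicate 2) to 3713 (without LPS replicate 3) beside 3036 in the main fit. They were 1743, 783 and 1035 without LPS replicate 1, LPS/siponimod replicate 1 and LPS/siponimod replicate 3, in each of which none of the 10 genes passed, and glmTreat gave 990. Of the further pathway genes, 4 were higher with the replicate block against 2, and glmTreat left 1 higher and 3 lower. With single libraries left out 0 to 8 were higher and 1 to 17 lower, the 1 without LPS/siponimod replicate 1.

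The replicate block changed no call among the 10 genes other than those of Cd180 and Ly86. For the ratios, pairing the libraries by number leaves the mean differences as given (-3.86 for Cd180 to Tlr4), and an exact sign-flip test over 3 pairs cannot go below p = 0.25. The log2 difference of Ly86 to Cd180 ranged from -0.0824 to 1.03 with single libraries left out, and the other ratios kept their sign. Il1a turned to 1.19 with limma-voom and 1.36 with the replicate block, and lay between -1.07 and 2.90 with single libraries left out. Over these fits Tnf ranged from -1.37 to 0.26, Unc93b1 from -0.31 to 0.16 and Hsp90b1 from -0.17 to 0.12. The cause of these changes was not tested. Genes with few counts, such as Lbp and Bpi, were left out by the filter on low counts in the main fit.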
